A study of Mus musculus with 6 samples.

Results

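Genes for the transport, activation and action of thyroid hormone were compared between the hypothalamus of aged and young mice. The 8 genes were taken by symbol from the deposited count table: Trh, Trhr, Dio2, Crym, Thra, Thrb, Hr and Klf9, and all 8 were found among its 18228 genes. RNA was sequenced from hypothalamus of 3 aged mice (22 months old) and 3 young mice (12 weeks old). The labels give no strain, sex, genotype or treatment beyond age. The groups shared free access to food and water, a regular light cycle and killing under sodium pentobarbital. Per the sample records, 5 mice per age were in behaviour tests, and the sequenced mice were drawn from those 5.

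Thyroid hormone reaches the brain mostly as the prohormone T4, which the deiodinase encoded by Dio2 turns into the active hormone T3, in the brain chiefly in astrocytes and in the tanycytes that line the third ventricle. T3 acts through the nuclear receptors encoded by Thra and Thrb, which bind DNA with a retinoid X receptor and switch target genes such as Hr and Klf9. The hypothalamus also heads the thyroid axis: neurons of the paraventricular nucleus release TRH, which drives thyrotropin (TSH) secretion from the pituitary, and T3 in turn represses Trh.

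Promoter windows of 3 of the genes are shown, 1 for each step of the pathway: Trh heads the axis, Dio2 activates the hormone and Klf9 responds to it. Each runs from 250 bases before to 50 bases after the RefSeq start in build GRCm38.p6, and 4 of the 8 genes were in that RefSeq table. Capitals mark the receptor half-site AGGTCA and the cAMP response core TGACG, searched on both strands.
Trh promoter (chr6:92244601-92244900, minus strand): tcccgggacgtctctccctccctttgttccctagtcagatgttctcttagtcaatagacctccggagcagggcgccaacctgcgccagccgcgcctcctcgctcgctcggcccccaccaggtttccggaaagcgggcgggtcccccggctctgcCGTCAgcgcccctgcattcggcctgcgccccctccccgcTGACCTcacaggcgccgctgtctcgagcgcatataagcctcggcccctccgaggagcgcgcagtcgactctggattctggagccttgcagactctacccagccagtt
Dio2 promoter (chr12:90738989-90739288, minus strand): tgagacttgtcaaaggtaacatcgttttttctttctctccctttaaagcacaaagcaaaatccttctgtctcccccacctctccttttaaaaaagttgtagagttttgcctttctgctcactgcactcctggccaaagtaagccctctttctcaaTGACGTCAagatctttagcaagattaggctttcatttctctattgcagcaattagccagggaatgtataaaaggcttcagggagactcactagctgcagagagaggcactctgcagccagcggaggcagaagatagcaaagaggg
Klf9 promoter (chr19:23140976-23141275, plus strand): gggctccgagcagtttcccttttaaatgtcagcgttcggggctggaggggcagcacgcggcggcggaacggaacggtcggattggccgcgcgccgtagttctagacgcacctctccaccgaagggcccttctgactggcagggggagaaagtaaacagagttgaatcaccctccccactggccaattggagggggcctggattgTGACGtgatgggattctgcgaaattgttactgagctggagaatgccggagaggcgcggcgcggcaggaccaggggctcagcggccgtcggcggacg
In the Trh window the half-site lies on the reverse strand from position -57 relative to the start and a cAMP core from position -96. The Dio2 window holds the full palindrome TGACGTCA from position -95, in which the core matches on both strands and overlaps itself. The Klf9 window holds the cAMP core from position -46. The half-site letters are in neither the Dio2 nor the Klf9 window. One of the Thrb windows of the table, not printed, holds the half-site from position -184 and the cAMP core from position -56. Over all 32851 promoters of the table, 16.3% hold AGGTCA, 20.8% hold TGACG and 1.79% hold TGACGTCA. The direct repeat of the half-site with a spacer of 4 bases, searched in the same way, was in none of the 3 windows and in 0.0152% of all promoters. A match is a string of letters and no measurement of binding.

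Libraries held 17208291 to 18884403 counted reads. The neuropeptide and transcription factor markers of hypothalamus were all detected, 11 of 11, with summed levels of 1200 to 1321 CPM (reads scaled to the library total after TMM normalization) in aged and 1264 to 1421 CPM in young libraries. In the edgeR test given below, 1 of them rose (Avp), 1 fell (Hcrt) and 9 did not pass. When single libraries were left out, 1 to 2 rose and 0 to 3 fell. An unadjusted p under 0.05 was found for 8, beside 26.2% of all tested genes. Several libraries stood apart. Young replicate 3 held 2561 reads of Prl and 1407 of Gh, pituitary hormone genes with 4 to 8 and 3 to 5 reads in the aged libraries, while young replicates 1 and 2 held 6 and 125 of Prl and 7 and 67 of Gh. In young replicate 2 Slc17a7, a glutamate transporter of cortex and thalamus neurons, stood at 173 CPM, against 9.58 to 22.1 CPM in the aged and 11.3 and 58.5 CPM in the other young libraries. The 4 Y-linked genes measured summed to 184 to 203 CPM in aged and 1.38 to 1.88 CPM in young libraries. The labels give no sex. By these genes the aged libraries look male and the young ones female, which is exactly the division by age. Age and sex therefore cannot be told apart in any result below.

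Across the whole table, edgeR's quasi-likelihood test called 1009 of 14702 tested genes at a Benjamini-Hochberg adjusted p under 0.05, which is 6.86%; 3.22% were called higher and 3.64% lower in aged hypothalamus. All 8 thyroid hormone genes passed the filter on low counts. Of them, 1 passed the test: Hr fell. None of the other 7 passed, although 5 of the 8 had an unadjusted p under 0.05, as 26.2% of all tested genes did; DESeq2 and limma-voom also called Hr alone. Trh and Trhr had every aged library above every young one, as 15.5% of tested genes did, and Hr had every aged library below, as 16.2% did; in either direction the share was 31.7%. The median log2 fold change of the 8 was 0.22, beside -0.0035 over all tested genes. The counts of 1 called and 3 without overlap among 8 genes lie near the shares over all genes; the count of 5 under the unadjusted threshold lies above its share, in genes chosen with earlier results known.

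**Figure D1:**
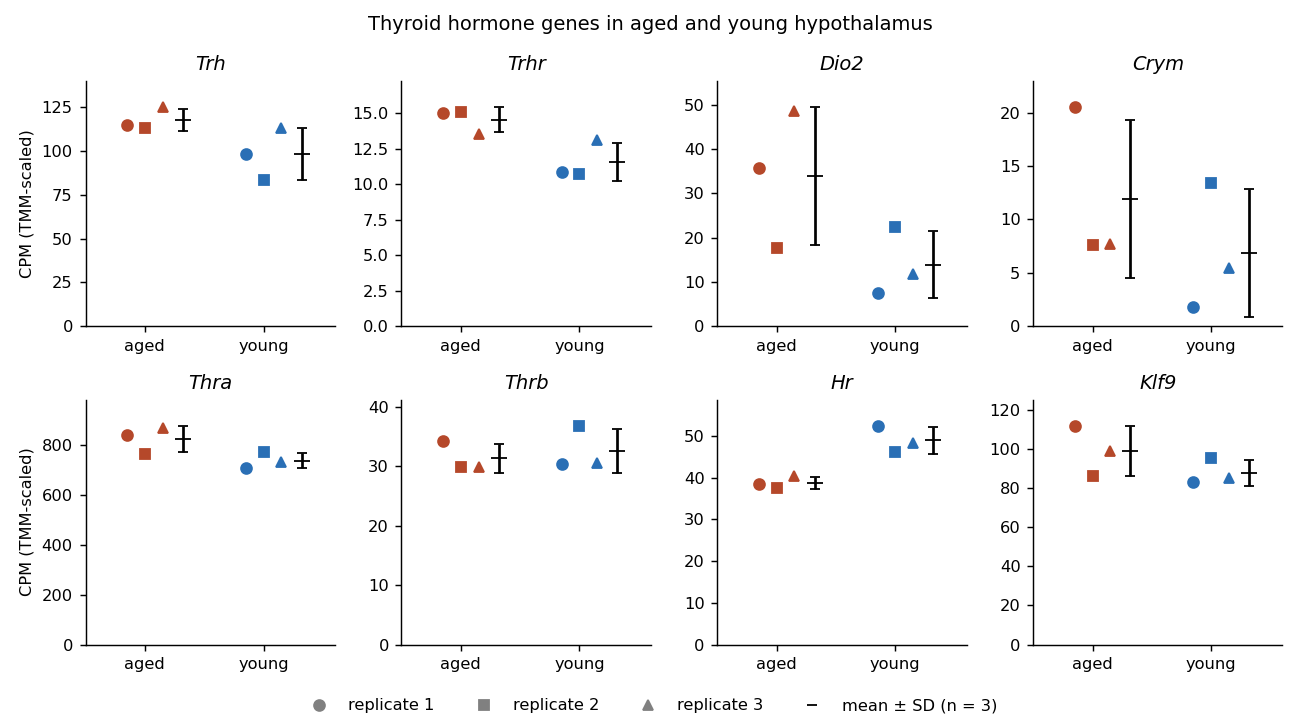
Level of each gene in CPM (reads scaled to the TMM-normalised library total, linear axis from 0) in each library, aged left of young, with mean ± SD beside the 3 points of each group. Hr has all aged points (37.6 to 40.4) below all young points (46.1 to 52.5), while Dio2 and Crym spread widely within both groups.

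Levels set against one another need a scale per gene length, for which the authors' FPKM were used. Thra was the most abundant of the 8 in both groups, at 223 ± 12.7 FPKM in aged and 195 ± 7.87 FPKM in young libraries (SD, n = 3 each). Trh followed at 85.9 ± 4.37 FPKM in aged and 70.3 ± 11.5 FPKM in young libraries, then Klf9 at 22.3 ± 2.70 FPKM in aged and 19.4 ± 1.35 FPKM in young. These 3 were separated from each other and from the rest in every library of both groups. Below them the order was not fixed: in aged libraries Crym (6.13 to 16.3 FPKM), Hr (6.25 to 6.63 FPKM) and Dio2 (2.81 to 7.63 FPKM) overlapped, as Dio2 and Trhr (3.05 to 3.44 FPKM) did. In young libraries Hr (7.38 to 8.41 FPKM) overlapped with Crym (1.37 to 10.5 FPKM), Crym with Trhr (2.35 to 2.94 FPKM), Trhr with Thrb (2.16 to 2.62 FPKM), and Thrb with Dio2 (1.16 to 3.41 FPKM). Thrb was lowest in aged libraries, at 2.18 to 2.48 FPKM. The gene length behind its FPKM is 13810 bases, the longest of the 8, and exons that this tissue does not use would lower the value.

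Hr encodes Hairless, a nuclear corepressor that binds thyroid hormone receptors and is itself induced by thyroid hormone in developing brain. It stood at 38.4, 37.6 and 40.4 CPM in the aged libraries, against 52.5, 46.1 and 48.4 CPM in the young. The highest aged library lay below the lowest young one, and the aged libraries were tightly grouped. Its mean was 38.8 ± 1.44 CPM over aged and 49.0 ± 3.20 CPM over young libraries (SD, n = 3 each), a log2 fold change of -0.34 ± 0.07 SE with a 95% interval from -0.50 to -0.17 (edgeR adjusted p = 0.0293). Leaving out any of 4 libraries ended the call: the edgeR adjusted p became 0.106 and 0.0897 on removal of aged replicates 1 and 3, and 0.10 and 0.0807 on removal of young replicates 1 and 3, with log2 fold changes from -0.36 to -0.28. It held without aged replicate 2 (edgeR adjusted p = 0.0437) and without young replicate 2 (0.0377).

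Klf9, a zinc finger transcription factor known as a direct target of both thyroid hormone and glucocorticoid receptors, stood at 112, 86.0 and 99.0 CPM in aged libraries, against 83.1, 95.4 and 84.9 CPM in young. Aged replicate 2 lay inside the young range and the other aged libraries above it. The log2 fold change was 0.17 ± 0.10 SE, with a 95% interval from -0.05 to 0.39 (edgeR adjusted p = 0.296). In the list of glucocorticoid-responsive genes, 10 of 15 rose and 0 fell (8 to 12 rose when single libraries were left out), such as the kinase Sgk1 (log2 fold change 2.26 ± 0.19 SE) and the clock gene Per1 (0.97 ± 0.10). This list summed to 787 to 1023 CPM in aged and 528 to 590 CPM in young libraries, and none of its genes was at 0. Aged replicate 2 was lowest of the aged here as for Klf9. Among the young, replicate 1 was lowest in both, while replicate 2 was highest for Klf9 and replicate 3 for the list. The part of glucocorticoid response in the Klf9 values was not tested.

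Of the 9 genes listed as responsive to thyroid hormone in rodent brain, 8 were tested, Hr fell and 7 did not pass; the median log2 fold change was 0.04. Nrgn, a calmodulin-binding protein of postsynaptic neurons, had 83.8, 79.9 and 76.4 FPKM in aged and 69.9, 118 and 107 FPKM in young libraries (edgeR adjusted p = 0.217). The low young library lay below the aged ones and the other young libraries above them. Mbp, a myelin protein, had a log2 fold change of 0.15 ± 0.09 SE, and Rasd2, a striatal GTP-binding protein, of -0.01 ± 0.08 SE. The list was drawn mostly from cortex, striatum and cerebellum.

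Dio2 had the largest estimate of the 8 and was among the most variable. It stood at 35.6, 17.7 and 48.6 CPM in aged libraries, against 7.56, 22.3 and 11.8 CPM in young. Aged replicate 2 lay below young replicate 2, so the groups overlapped. Its mean was 34.0 ± 15.5 CPM over aged and 13.9 ± 7.58 CPM over young libraries (SD, n = 3 each), a log2 fold change of 1.28 ± 0.40 SE with a 95% interval from 0.39 to 2.18 (edgeR adjusted p = 0.0823). The spread between libraries of the same age, an SD of 0.76 in log2 CPM, was larger than that of 99.2% of tested genes, whose median was 0.12. Left out singly, 2 libraries brought it past the threshold: the log2 fold change was 1.61 (edgeR adjusted p = 0.0234) without aged replicate 2 and 1.80 (edgeR adjusted p = 0.0439) without young replicate 2. Without any of the other libraries it was 0.94 to 1.26 and did not pass.

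Of 12 astrocyte markers, 0 rose, 4 fell and 8 did not pass (2 to 5 fell and at most 1 rose when single libraries were left out); the water channel Aqp4 changed by -0.70 ± 0.11 SE and the transcription factor Sox9 by -0.83 ± 0.10 SE on the log2 scale. Of 9 tanycyte markers, 5 rose, 1 fell and 3 did not pass (1 to 5 rose and 0 to 1 fell when single libraries were left out). Those that rose included Vim (0.55 ± 0.08) and Nes (0.97 ± 0.18), intermediate filaments that other cells also make, and Gpr50 (0.49 ± 0.09). The 1 that fell was Cd59a (-0.46 ± 0.11). Summed levels were 3381 to 4615 CPM for astrocyte and 174 to 191 CPM for tanycyte markers in aged libraries, against 5098 to 5317 CPM and 117 to 141 CPM in young. No marker of either list was at 0 in any library. Aged replicate 2, lowest of the aged libraries in Dio2, was lowest in the astrocyte sum (3381 CPM) and highest in the tanycyte sum (191 CPM). In bulk tissue, fewer cells of a type and less RNA per cell cannot be told apart, and the part of either cell type in the Dio2 values was not tested. Dio3, the deiodinase that inactivates T4 and T3, was near the lower limit of measurement, at 0.99, 0.11 and 0.37 FPKM in aged and 0.15, 0.51 and 0.36 FPKM in young libraries (log2 fold change 0.48 ± 0.66 SE, edgeR adjusted p = 0.694).

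**Figure D2:**
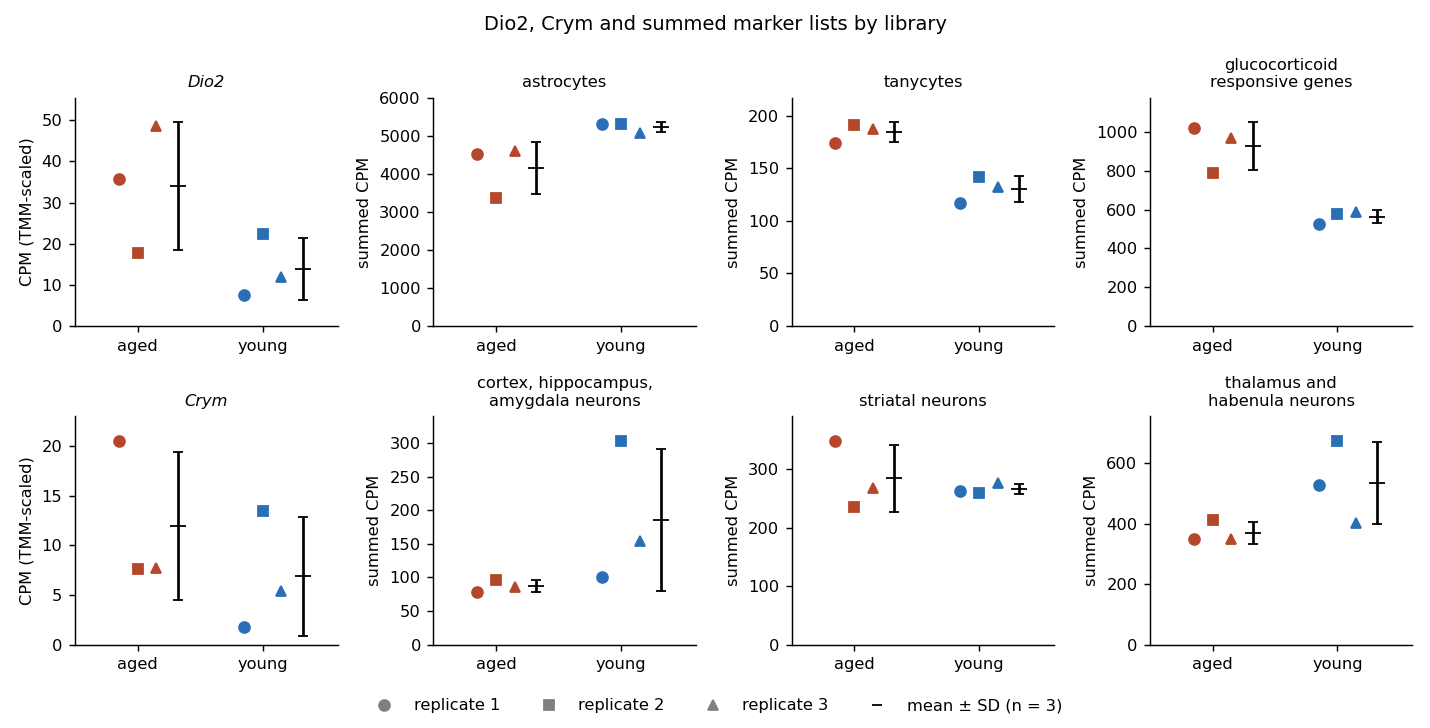
Dio2 and Crym in CPM and 6 marker lists as summed CPM (linear axes from 0) in each library, aged left of young, with mean ± SD beside the 3 points of each group. Astrocyte sums lie lower in all aged libraries (3381 to 4615) than in the young (5098 to 5317), tanycyte sums lie higher (174 to 191, against 117 to 141), and Dio2 overlaps between aged (17.7 to 48.6) and young (7.56 to 22.3) libraries.

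Crym encodes mu-crystallin, a cytosolic protein that binds T3. It was the most variable of the 8, at 20.5, 7.63 and 7.67 CPM in aged libraries, against 1.76, 13.4 and 5.40 CPM in young. Aged replicate 1 was high and young replicate 1 low, with 366 and 30 reads, and the groups overlapped. The within-group SD of 1.18 in log2 CPM exceeded that of 99.8% of tested genes. The log2 fold change was 0.79 ± 0.58 SE with a 95% interval from -0.50 to 2.09 (edgeR adjusted p = 0.420). Single libraries decided its size: it was 0.16 without aged replicate 1, 0.35 without young replicate 1 and 1.73 without young replicate 2, none of them passing. Crym is known to be abundant in telencephalic neurons. Striatal markers, 0 of 7 called by edgeR, DESeq2 or limma-voom and 1 with an unadjusted p under 0.05, summed highest in aged replicate 1 (349 CPM, against 236 and 269 CPM in the other aged and 259 to 276 CPM in the young libraries). Markers of cortex, hippocampus and amygdala, 2 of 7 tested lower (0 to 3 when single libraries were left out), summed to 78.4 to 96.9 CPM in aged libraries, against 99.9, 304 and 154 CPM in young replicates 1, 2 and 3. Thalamus and habenula markers, 3 of 7 lower (0 to 6 when single libraries were left out), summed to 348 to 412 CPM in aged and 403 to 673 CPM in young libraries. The part of these neighbouring regions in the Crym values was not tested.

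Thra encodes the receptor TRα1 and also a splice form, TRα2, that does not bind T3; gene counts do not separate them. Thra stood at 839, 764 and 867 CPM in aged libraries, against 709, 770 and 731 CPM in young. Aged replicate 2 lay just under young replicate 2 and the other aged libraries lay above all young ones. The log2 fold change was 0.16 ± 0.06 SE, with a 95% interval from 0.01 to 0.31 (edgeR adjusted p = 0.154), and 0.22 without aged replicate 2, where it passed (edgeR adjusted p = 0.0439). The 3′ exons of Thra overlap those of Nr1d1 on the opposite strand by 263 bases in a GRCm38 annotation. Nr1d1, a clock repressor, fell, with 1933, 1859 and 1730 reads in aged and 2217, 2155 and 2101 reads in young libraries (log2 fold change -0.28 ± 0.07 SE, edgeR adjusted p = 0.0388; 0.060 to 0.160 without single libraries, each of which ended the call). The libraries keep the strand, but whether the counting used it is not given in the sources used here, so reads of the overlap could have gone to either gene or to neither.

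Thrb, the receptor of the TSH feedback loop, stood at 34.2, 29.9 and 29.9 CPM in aged libraries, against 30.4, 36.8 and 30.5 CPM in young. The ranges overlapped between 30.4 and 34.2 CPM. The log2 fold change was -0.06 ± 0.10 SE, with a 95% interval from -0.28 to 0.16 (edgeR adjusted p = 0.764), and its sign turned without young replicate 2 (0.05) and with the gene length trend removed (0.07). Thra made up 98.9%, 99.0% and 99.1% of the summed Thra and Thrb FPKM in aged libraries, against 98.9%, 98.7% and 98.9% in young. The mean FPKM share was 99.0 ± 0.0847% in aged and 98.8 ± 0.0856% in young libraries (SD, n = 3 each). The difference was 0.158 percentage points with a two-sided exact permutation p of 0.1, the smallest that 20 assignments of the libraries allow. On counts, not scaled for gene length, the share was 96.1%, 96.2% and 96.7% in aged and 95.9%, 95.4% and 96.0% in young libraries. Of the 5 receptor and partner genes 0 passed in edgeR, DESeq2 or limma-voom. An unadjusted edgeR p under 0.05 was found for 2, beside 26.2% of all tested genes. The retinoid X receptor Rxrg, chosen after its values were seen, had 11.9, 12.9 and 10.6 FPKM in aged and 9.23, 8.77 and 9.83 FPKM in young libraries (log2 fold change 0.32 ± 0.09 SE, edgeR adjusted p = 0.0568; 0.0497 with library totals alone), with no overlap. Rxra and Rxrb had log2 fold changes of 0.09 ± 0.09 SE and 0.01 ± 0.07 SE.

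Proteins that join the receptors on DNA were measured as a list of 9, of which 2 fell and 7 did not pass; the median log2 fold change was -0.11. Med1, the Mediator subunit that contacts nuclear receptors when hormone is bound, had 36.9, 34.7 and 36.5 CPM in aged libraries, against 49.5, 46.7 and 45.1 CPM in young. The groups were well separated, with a log2 fold change of -0.39 ± 0.07 SE (edgeR adjusted p = 0.0168; 0.0575, 0.0723 and 0.0633 without aged replicate 1, aged replicate 3 and young replicate 1). Tbl1xr1, a subunit of nuclear receptor corepressor complexes, fell to 34.8, 41.4 and 30.8 CPM in aged libraries, against 50.5, 51.9 and 43.9 CPM in young (log2 fold change -0.45 ± 0.11 SE, edgeR adjusted p = 0.0435). That call was lost in 10 of 18 alternatives, among them leaving out any library but aged replicate 2, and scaling by library totals alone. The corepressor complex subunit Tbl1x and the deacetylase Hdac3 had log2 fold changes of -0.01 ± 0.06 SE and 0.04 ± 0.07 SE.

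**Figure D3:**
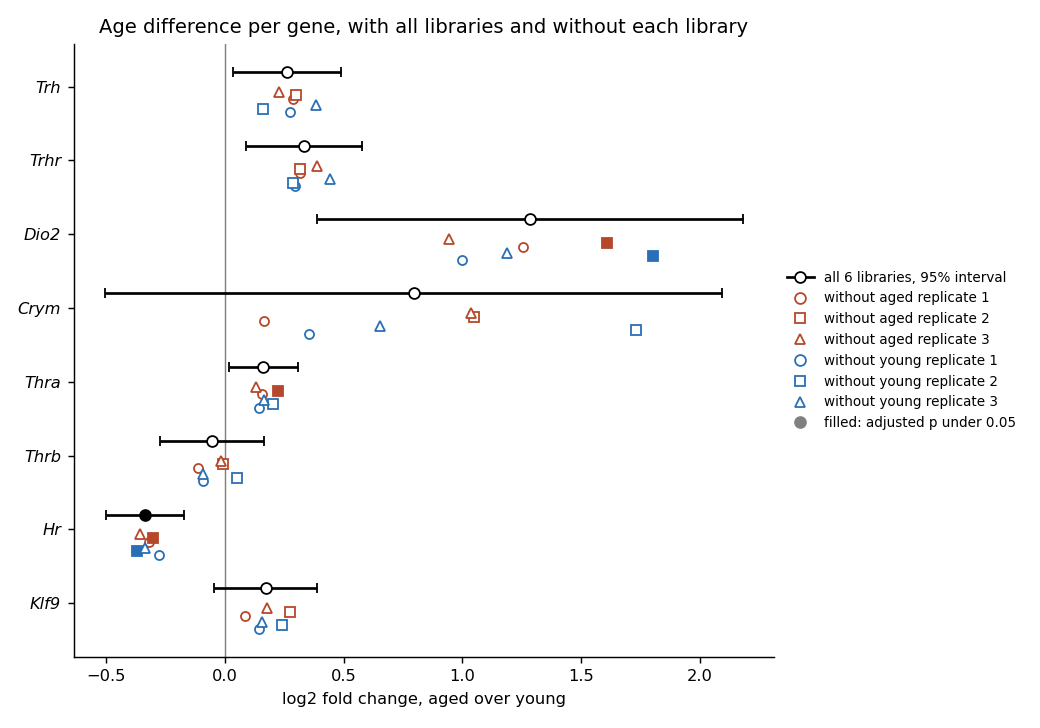
Log2 fold change of aged over young for each of the 8 genes, with all 6 libraries (black, bars are 95% intervals) and without each library in turn (coloured by the group it came from, marker by replicate); filled symbols passed at an adjusted p under 0.05. Hr lies below 0 throughout but is filled in 2 of its 6 reduced sets, and Crym moves between 0.16 and 1.73.

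Trh, the TRH precursor gene, stood at 115.13, 113.29 and 125.03 CPM in aged libraries, against 98.58, 83.19 and 112.92 CPM in young. The lowest aged library cleared the highest young one, young replicate 3, only narrowly. The log2 fold change was 0.26 ± 0.10 SE, with a 95% interval from 0.04 to 0.49 (edgeR adjusted p = 0.138), and without single libraries it was 0.16 to 0.38 and did not pass. Young replicate 3 is also the library with the most Prl and Gh reads, and without it the edgeR adjusted p for Trh was 0.0662. Trhr, a TRH receptor, stood at 15.02, 15.1 and 13.6 CPM in aged libraries, against 10.8, 10.7 and 13.1 CPM in young. Here too the groups did not overlap and young replicate 3 came closest to the aged libraries. Its log2 fold change was 0.33 ± 0.11 SE, with a 95% interval from 0.09 to 0.58 (edgeR adjusted p = 0.0933), and 0.44 without young replicate 3 (edgeR adjusted p = 0.0719).

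Among the 8 genes of TRH processing and breakdown, which include Trh and Trhr, 0 passed in edgeR and 5 had an unadjusted p under 0.05, beside 26.2% of all tested genes; the median log2 fold change was -0.08. Cpe, the carboxypeptidase that trims prohormone fragments, had 905, 843 and 903 FPKM in aged libraries, against 922, 1036 and 948 FPKM in young. All aged values were below all young ones, with a log2 fold change of -0.16 ± 0.07 SE (edgeR adjusted p = 0.164). Pcsk2, a prohormone convertase that cuts the TRH precursor, had a log2 fold change of -0.24 ± 0.08 SE (edgeR adjusted p = 0.0819), also without overlap, and was called in DESeq2. Pcsk1, the other convertase of the list, chosen after its values were seen, had an estimate of the opposite sign, 0.19 ± 0.08 SE on the log2 scale (edgeR adjusted p = 0.162), with overlap. Pam, which amidates the finished peptide, had a log2 fold change of 0.0052 ± 0.08 SE.

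Of 4 transcription factors listed for the paraventricular nucleus, where TRH neurons lie, Pou3f2 fell and 3 did not pass. Pou3f2, a POU domain factor also made in other cells of the brain, stood at 23.8, 23.2 and 26.5 CPM in aged libraries, against 32.9, 36.2 and 33.5 CPM in young. The groups were clearly separated, with a log2 fold change of -0.48 ± 0.08 SE (edgeR adjusted p = 0.0135; 0.0607 without aged replicate 1). Otp, Sim1 and Arnt2 had log2 fold changes of -0.28 ± 0.10 SE, -0.28 ± 0.14 SE and -0.13 ± 0.06 SE, all with an edgeR adjusted p above the threshold. The estimates of all 4 factors were thus negative while that of Trh was positive, and the difference itself was not tested. Trh has a length of 1384 bases and the 4 factors of 6272 to 8789 bases. Over all tested genes, the median log2 fold change was 0.11 in the shortest of 10 length classes and -0.12 in the longest. With this trend removed, Trh had a log2 fold change of 0.17 (edgeR adjusted p = 0.314) and Pou3f2 of -0.43 (edgeR adjusted p = 0.0199).

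Of 9 genes of thyroid hormone transport and binding, Crym included, 0 passed in edgeR. An unadjusted edgeR p under 0.05 was found for 3, beside 26.2% of all tested genes, and the median log2 fold change was -0.13. Slco1c1, the T4 transporter of brain endothelium and astrocytes, had 9.95, 8.92 and 10.8 FPKM in aged and 11.2, 9.92 and 11.5 FPKM in young libraries (log2 fold change -0.17 ± 0.09 SE, edgeR adjusted p = 0.273). The amino acid transporter subunits Slc7a5 and Slc3a2, which together also carry thyroid hormone, had log2 fold changes of -0.13 ± 0.08 SE and 0.29 ± 0.12 SE. Slco1a4, a further organic anion transporter that was chosen after its values were seen, had 5.50, 8.22 and 6.25 FPKM in aged and 10.2, 8.48 and 9.004 FPKM in young libraries (log2 fold change -0.50 ± 0.13 SE, edgeR adjusted p = 0.0547; 0.00831 without aged replicate 2); it passed in DESeq2 (adjusted p = 0.00742). Its groups did not overlap.

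Counted without the 8 genes, 39 further pathway genes were tested (Dio1 is not analysed here). Of these 0 rose, 3 fell (Pou3f2, Med1 and Tbl1xr1) and 36 did not pass, beside 3.22% higher and 3.64% lower over all tested genes. The median log2 fold change was -0.06. In the TSH list, Tshb was at 0 in 2 of the 6 libraries and too low to be tested. Cga, the shared hormone subunit, was at 0 in aged replicate 1 and young replicate 1. It had 63 and 88 reads in aged replicates 2 and 3, and 49 and 33 reads in young replicates 2 and 3. Eya3, a coactivator of the pituitary stalk, had a log2 fold change of -0.04 ± 0.07 SE, and the TSH receptor Tshr of 0.44 ± 0.24 SE.

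**Figure D4:**
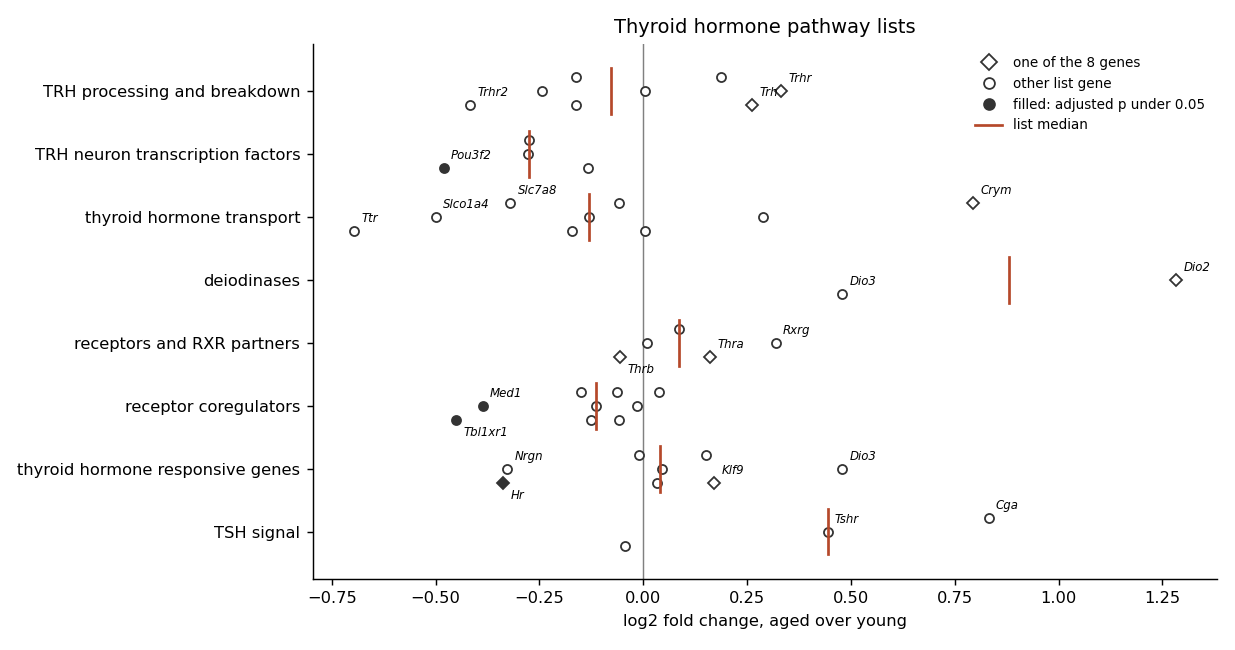
Log2 fold change of aged over young for every tested gene of the 8 pathway lists, 1 row per list; diamonds are the 8 genes described here, filled symbols passed at an adjusted p under 0.05 and the red bar is the list median. The 4 filled symbols, Pou3f2, Med1, Tbl1xr1 and Hr, all lie below 0.

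The genes whose level moved most like each of the 8 over the 6 libraries were found among 13019 genes, by the mean absolute difference of log2 CPM after centring each gene on its own mean. For Dio2 these were Ppp1r3g (0.240), a regulator of glycogen synthesis, Gadd45b (0.244), a stress-inducible gene, and Sap30 (0.302), a corepressor subunit. For Hr they were Sall2 (0.0257), Igsf3 (0.0258) and Dtx4 (0.0284). For Trhr they were Stk33 (0.0250), Tmem199 (0.0359) and Tmem258 (0.0378), and for Trh Gpc3 (0.0345), Gmip (0.0416) and Adam8 (0.0431). Thra lay nearest to Ptges3-ps (0.0122), Thrb to Agap2 (0.0302) and Crym to Col6a1 (0.410). The larger distances of Dio2 and Crym go with their wider spread.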

How the data were processed

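RNA was measured by sequencing in 6 hypothalamus libraries, each from a separate mouse; the extraction kit was mirVana and the library kit TruSeq Stranded mRNA, per the labels' protocols. Mice were 3 of the 5 per age in behaviour tests, drawn at random per the labels. The authors deposited whole-number read counts per gene, which are not normalized. FPKM were deposited for the same reads and equal the counts over a gene length and the library total to 1e-06 in relative terms, in 18228 of 18228 genes. Per the submitters' processing notes, Trimmomatic, HISAT2, Cufflinks, HTSeq and DESeq were used with build GRCm39; no source used here gives their versions, the annotation, the strand setting or the handling of reads shared by several genes. No annotation of that build was at hand, so gene names are those of the files, and overlaps with neighbours come from a GRCm38 annotation.

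Aged and young libraries were compared with edgeR 4.0.16 in R 4.3.3 (quasi-likelihood test, no covariate, TMM scaling, filterByExpr with a minimum count of 10 and a minimum total of 15), which tested 14702 genes holding 99.95% of all counts. P-values were adjusted by Benjamini-Hochberg over all of them, with a threshold of 0.05. SE and 95% intervals are those implied by the test, and fold changes are aged over young on the log2 scale. Replicates of an age differed beyond sampling noise, with a chi-square of 4.00 to 12.1 per degree of freedom, so each library was counted as 1 sample.

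The 8 genes, the pathway and marker lists and the tests were chosen with earlier results of these data known. Named genes are the 8, every called gene of the pathway lists, up to 3 others per list by highest mean FPKM, up to 4 called genes per marker list, and the 3 genes nearest in pattern with a mean log2 CPM of at least 1; exceptions are said to be so, and some genes that the rule names are not reported here. Alternatives were library totals, DESeq2 size factors and upper quartile factors, no low-count filter and a mean count of at least 50, DESeq2 1.42.0, limma 3.58.1 (voom, and trend on log2(FPKM + 1) with and without the filter and on log2(FPKM + 0.1)), the loess trend on gene length removed, a replicate block, and each library left out. The test was checked on simulated data of this comparison with 14702 genes. With gene-wise dispersions, recovery was 66.2%, 95.3% and 97.2% at 1.5-fold, 2-fold and 4-fold changes, and 6.49% of calls were false. With trended ones recovery at 1.5-fold was 73.8% and 4.40% of calls were false. Changes below 1.5-fold, as estimated for all of the 8 genes but Dio2 and Crym, were not simulated. Recovery was not given separately for genes that vary as widely as Dio2 and Crym.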

Additional observations from a re-analysis of the deposited data

How the results depend on the processing

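Among the 8 genes, Hr kept its direction in all 18 alternatives (log2 fold change -0.37 to -0.27) and its call in 11; adjusted p was 0.0587, 0.0548 and 0.0787 with limma-trend on log2(FPKM + 1), on log2(FPKM + 0.1) and on log2(FPKM + 1) without a filter, where 0 of the 8 were called. Leaving out single libraries, 0 to 2 of the 8 were called higher and 0 to 1 lower; the 2 were Dio2 and Thra without aged replicate 2. Trh, Trhr, Dio2, Crym, Thra and Klf9 kept a positive sign in every alternative, and Thrb reversed to 0.070 with the gene length trend removed; without single libraries it ran from -0.11 to 0.049, positive when young replicate 2 was left out. The gene length trend gave medians of 0.11 for the shortest of 10 length classes and -0.12 for the longest.

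Of the 39 other pathway genes, 1 was called higher with library totals alone, and 5 were called lower with DESeq2, 5 with the replicate block and 0 with limma-trend on log2(FPKM + 1) without a filter; without single libraries 0 to 1 were higher and 0 to 6 lower. Over all genes, 298 were higher with limma-trend on log2(FPKM + 1) without a filter, and 293, 303, 122 and 353 were lower with limma-trend on log2(FPKM + 1), on log2(FPKM + 0.1), on log2(FPKM + 1) without a filter and with the length trend removed; without single libraries 95 to 901 were higher and 55 to 732 lower. The cause of these shifts was not tested.

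Same-numbered libraries did not deviate together (correlations 0.110, 0.0410 and -0.126). With so few libraries per age, this cannot show whether the replicate numbers pair the mice. With the replicate block, the log2 fold change of Hr was -0.34 (edgeR adjusted p = 0.0333), and the share of Thra differed by 0.158 percentage points (two-sided exact sign-flip p = 0.25, the smallest possible). That share kept its direction without single libraries (0.110 to 0.193) and on counts (0.553).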
